A study of Mus musculus with 18 samples.

Results

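The genes described here are 32 macrophage and myeloid genes, chosen by name and found by mapping the mouse Ensembl identifiers of the count table to symbols. All 32 were found among the 43430 identifiers of the table, and 28 of the 32 passed the filter on low counts and were tested. The libraries were made from quadriceps myofibers of male and female C57BL/6 mice (C57BL/6J in the methods) given vehicle, prednisone once a week or prednisone every day, with 3 libraries in each of the 6 groups and 18 in all. Prednisone, a glucocorticoid that suppresses immune cells, was injected intraperitoneally at 1 mg/kg from 10 weeks of age for 4 weeks. The weekly mice received 5 prednisone injections, the last 2 days before harvest and the others each followed by 6 days of vehicle (DMSO in PBS), and the vehicle mice received DMSO only. The daily mice received prednisone every day. The RNA came from the fraction that did not pass a 40-μm strainer after collagenase digestion, which can hold other cells of the muscle, and the methods name no sort for macrophages. The methods count 3 animals per sex and treatment.

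Macrophages are resident phagocytes that engulf debris and damaged fibers in muscle, present antigen and signal to muscle stem cells during repair. The genes listed here span their work. Surface receptors bind debris and lipoproteins, growth factor and chemokine receptors set survival and recruitment, and Fc receptors signal through small adaptors with an immunoreceptor tyrosine-based activation motif (ITAM). Complement C1q tags targets for engulfment, integrins hold the cells in place, and lysosomal enzymes break down what was taken up. Glucocorticoids act on macrophages through the glucocorticoid receptor and are known to change both inflammatory and scavenging genes in them.

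Each library held between 10506661 and 14686654 counts. The members were scarce in them: together they summed to between 91.7 and 232 CPM (counts scaled to library size with the trimmed mean of M values, TMM), against 120300 to 219200 CPM for 10 myofiber genes such as the actin and creatine kinase of skeletal muscle. Fewer macrophages and less of these RNAs per macrophage cannot be told apart in such bulk libraries. Markers of neutrophils summed to 0.392 to 5.48 CPM, with *Ly6g* at 0 in all 18 libraries, and markers of T and NK cells to 0.588 to 2.51 CPM. At a count of 0 up to 3 counts per library remain possible. Among the libraries, female vehicle replicate 2 was the lowest for 12 of the 28 tested members and female weekly replicate 3 the highest for 17 of them, and several medians are also given without one or both.

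Per kilobase of merged exon, the mean level over the 18 libraries was highest for *Lyz2*, which encodes lysozyme M, at 21.5 CPM per kb. The lysosomal protease gene *Lgmn* followed at 10.4 CPM per kb, and the complement genes *C1qa* and *C1qb* at 6.61 and 5.71 CPM per kb. The lipopolysaccharide co-receptor gene *Cd14* lay at 3.22 CPM per kb, *C1qc* at 3.11 and the cysteine protease gene *Ctss* at 2.95. The defining macrophage genes were lower on the same scale, with *Csf1r*, the receptor for the growth factor CSF1, at 1.27 CPM per kb and *Adgre1*, which encodes the F4/80 antigen, at 0.585. The leukocyte phosphatase gene *Ptprc* (CD45) was at 0.0804 CPM per kb. All of these were detected in every library, so none of the 18 lacked the defining markers of the label. A close copy of *Lyz2*, *Lyz1*, averaged 1.91 CPM against 28.3 CPM for *Lyz2*, and reads shared by the pair could be split between them.

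Members that were too scarce to test were the fractalkine receptor gene *Cx3cr1*, the high-affinity Fc receptor gene *Fcgr1*, the lipid-sensing receptor gene *Trem2* and *Aif1*, which encodes the actin-binding protein IBA1. *Cx3cr1* had 37 counts over the 18 libraries, 0 to 7 in each, *Trem2* had 40, *Fcgr1* had 60 and *Aif1* had 81. The highest library reached 1.16 CPM for *Fcgr1*, 0.4905 CPM for *Trem2* and 1.07 CPM for *Aif1*. *Cx3cr1* stood in males at 0.0878, 0 and 0.208 CPM with vehicle, 0.08796, 0.0961 and 0.279 CPM with weekly and 0.0695, 0.126 and 0.0979 CPM with daily prednisone. Its female libraries were at 0.508, 0 and 0.448 CPM with vehicle, 0.469, 0 and 0.0771 CPM with weekly and 0.0768, 0.189 and 0.0604 CPM with daily prednisone. Its values overlapped between all groups, and its model in the count table spans several other genes, among them the abundant myofiber gene *Xirp1*.

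The first comparison asked how the myeloid genes responded to weekly prednisone in females. All 28 tested members had a log2 fold change above 0 against vehicle, where 51.4% of the 13596 genes tested did. Their median log2 fold change was 0.79, against 0.008 over all genes, and it ranged from 0.07 to 1.87. By edgeR's quasi-likelihood test with Benjamini-Hochberg adjustment (threshold 0.05), 0 of 28 members and 0% of all genes passed, and the smallest adjusted p of a member was 0.247. At an unadjusted p under 0.05, 13 of 28 were higher and 0 lower, where 5.67% of all genes were higher. With limma-voom 0 members were called. DESeq2 called 3, namely *C1qa*, *C1qb* and *Tyrobp*, among 149 of 15761 genes that it adjusted over or that edgeR tested. In 11 of 28 members every weekly library lay above every vehicle library, as in 4.94% of all genes.

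The size of that difference depended on female vehicle replicate 2 and female weekly replicate 3. Leaving out the vehicle library, the median log2 fold change was 0.45 with 28 of 28 members above 0, and leaving out the weekly library it was 0.53 with 27 of 28 above 0. With neither library, a setting chosen after seeing the data, the median was 0.33, with 25 of 28 above 0. Without female weekly replicate 2 edgeR called 3 members, *C1qa*, *C1qb* and *Tyrobp*, among 253 of 13839 genes. The heatmap of all tested members shows the block of weekly females against the other groups.

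**Figure D1:**
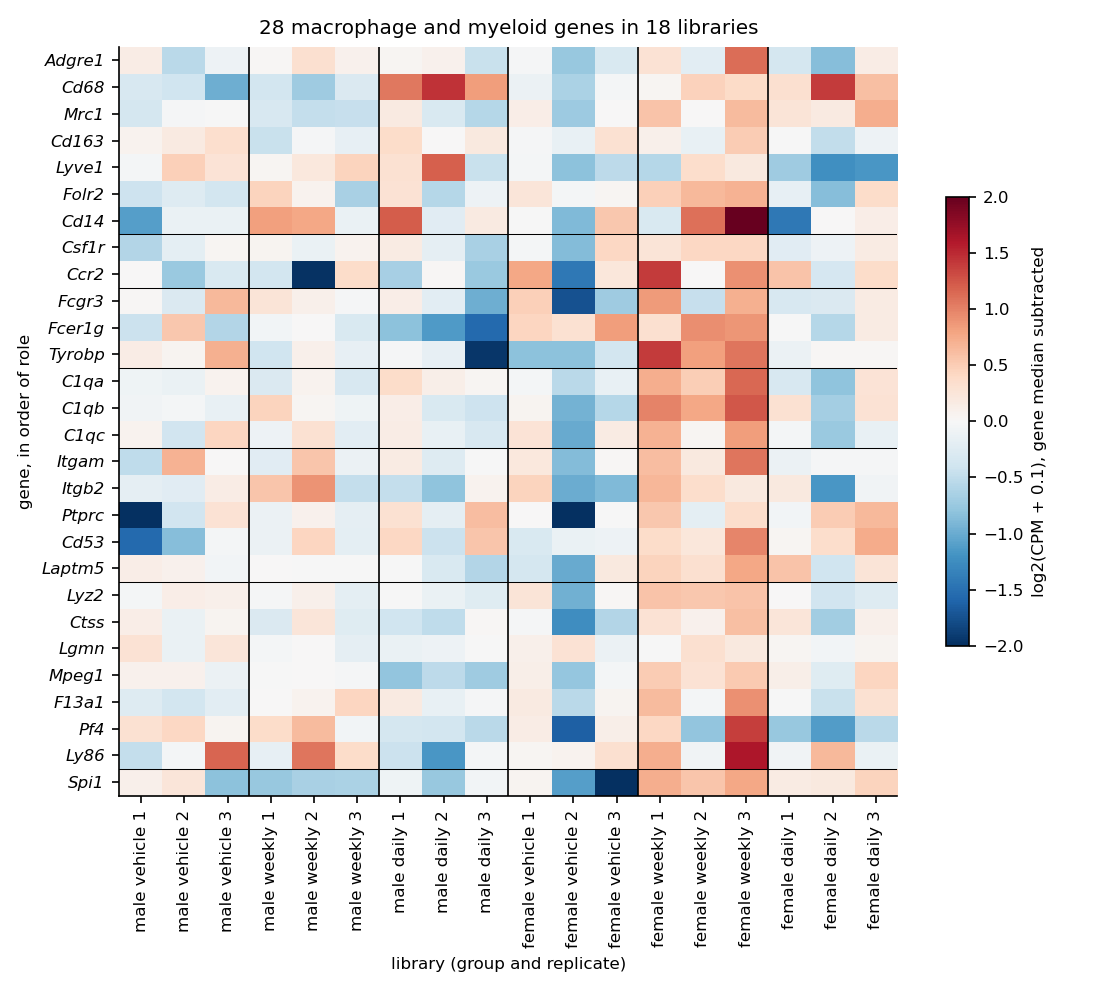
Level of the 28 tested genes (rows, in order of role) in the 18 libraries (columns, grouped by sex and treatment), as log2(CPM + 0.1) minus the gene's median, blue low and red high. The 3 female weekly columns hold the most red, and in female weekly replicate 3 all 28 genes lay above their own median, while in female vehicle replicate 2 only 3 did.

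Fat markers were higher in 2 of the weekly female libraries as well. The sum over 10 adipocyte genes was 2185, 2136 and 1914 CPM in the female vehicle libraries and 8301, 2150 and 9929 CPM in the female weekly libraries, and each of the 10 was detected in every library except *Lep*, at 0 in female vehicle replicate 2. The members summed to 147, 91.7 and 134 CPM with vehicle and 184, 174 and 232 CPM with weekly prednisone in females. Female weekly replicate 2 sat at the vehicle level of fat markers, yet its member sum lay above all 3 vehicle sums and 16 of 28 members lay above and 2 below every vehicle library there, as 31.5% and 31.4% of all genes did. Mitochondrial genes took 36.4% of its counts, the highest share of the 18 libraries (11.7% to 32.6% in the others), and their part in these values was not tested. With a per-library adipocyte score held constant in the fit, the members' median log2 fold change was 0.24, with 23 of 28 above 0. The part of fat tissue in the difference beyond these values was not tested.

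**Figure D2:**
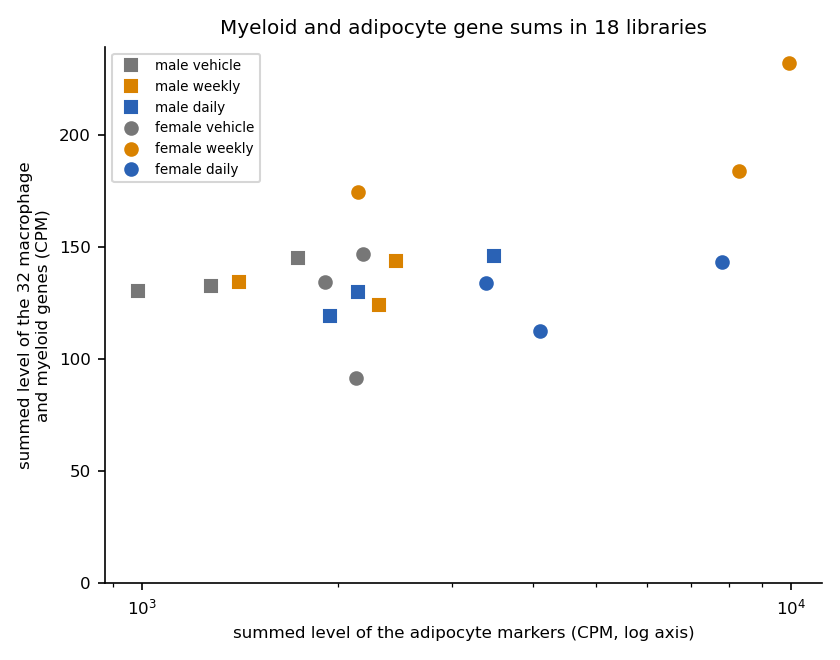
Summed level of the 32 macrophage and myeloid genes (vertical axis, CPM) against the summed level of 10 adipocyte markers (horizontal axis, CPM, log scale), 1 point per library, squares for males and circles for females, color for treatment. The 3 female weekly libraries have the highest myeloid sums, from 174 to 232 CPM, and 1 of them lies at the fat marker level of the vehicle libraries.

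Among the phagocyte surface markers and scavenger receptors, 7 of 7 tested genes lay above 0 in weekly females, with a median log2 fold change of 0.54. *Adgre1* stood in males at 2.11, 1.27 and 1.77 CPM with vehicle, 1.94, 2.402 and 2.02 CPM with weekly and 1.95, 2.01 and 1.37 CPM with daily prednisone. The female values were 1.86, 1.09 and 1.52 CPM with vehicle, 2.35, 1.63 and 4.24 CPM with weekly and 1.46, 1.01 and 2.12 CPM with daily prednisone. Female weekly replicate 3 was far above the rest, and the female groups overlapped (log2 fold change 0.87 ± 0.36 SE). *Mrc1*, which encodes the mannose receptor CD206, stood in males at 4.83, 6.08 and 6.14 CPM with vehicle, 4.93, 4.42 and 4.46 CPM with weekly and 7.02, 4.97 and 4.11 CPM with daily prednisone. Females had 6.78, 3.69 and 6.18 CPM with vehicle, 9.18, 6.22 and 9.63 CPM with weekly and 7.37, 6.98 and 10.2 CPM with daily prednisone. Here all female daily libraries, but only 2 of the weekly ones, lay above the vehicle libraries (log2 fold change 0.58 ± 0.25 SE for weekly and 0.55 ± 0.25 SE for daily prednisone).

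The hemoglobin scavenger receptor gene *Cd163* stood in males at 6.06, 6.57 and 7.29 CPM with vehicle, 4.22, 5.67 and 5.16 CPM with weekly and 7.44, 5.78 and 6.66 CPM with daily prednisone. In females it stood at 5.67, 5.22 and 7.16 CPM with vehicle, 6.23, 5.17 and 8.25 CPM with weekly and 5.76, 4.09 and 5.38 CPM with daily prednisone. The female groups overlapped, and in males the weekly libraries lay below the vehicle libraries (log2 fold change -0.40 ± 0.21 SE). *Lyve1*, a hyaluronan receptor gene of perivascular macrophages that lymphatic endothelium also uses, stood in males at 4.57, 6.57 and 5.73 CPM with vehicle, 4.84, 5.48 and 6.41 CPM with weekly and 5.84, 10.9 and 3.43 CPM with daily prednisone. Its female libraries were at 4.57, 2.61 and 3.22 CPM with vehicle, 3.15, 6.03 and 5.396 CPM with weekly and 2.84, 1.95 and 2.05 CPM with daily prednisone. The female daily libraries lay below the weekly ones, and male daily replicate 2 was the highest of all 18 libraries. The folate receptor gene *Folr2* was at 2.29, 1.85 and 1.97 CPM in vehicle and 2.68, 3.06 and 3.16 CPM in weekly females, without overlap. *Cd14* was at 3.895, 2.06 and 5.73 CPM in vehicle and 3.15, 8.52 and 24.6 CPM in weekly females (log2 fold change 1.62 ± 0.64 SE), and female weekly replicate 3 was far above the other 17 libraries.

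Of the growth factor and chemokine receptors, both tested genes had positive log2 fold changes in weekly females. *Csf1r* stood in males at 4.92, 6.47 and 7.601 CPM with vehicle, 7.65, 6.72 and 7.74 CPM with weekly and 8.34, 6.54 and 4.7 CPM with daily prednisone. The female values were 7.198, 4.02 and 9.85 CPM with vehicle, 8.85, 9.86 and 9.94 CPM with weekly and 6.297, 6.86 and 8.34 CPM with daily prednisone. The weekly female libraries were close together and above all daily ones, but 1 vehicle library lay among them, and a gene on the opposite strand, *Hmgxb3*, overlaps *Csf1r*. *Ccr2*, the chemokine receptor that brings blood monocytes into tissue, stood in males at 1.05, 0.589 and 0.833 CPM with vehicle, 0.792, 0.192 and 1.39 CPM with weekly and 0.626, 1.07 and 0.588 CPM with daily prednisone. Females had 1.86, 0.326 and 1.25 CPM with vehicle, 2.95, 1.05 and 2.08 CPM with weekly and 1.61, 0.818 and 1.39 CPM with daily prednisone. Its libraries varied several-fold within groups, and the groups of each sex overlapped (log2 fold change 0.80 ± 0.55 SE for weekly females).

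Of the Fc receptors and ITAM adaptors 3 of 3 tested genes lay above 0 in weekly females, with a median log2 fold change of 0.87. *Tyrobp* (ENSMUSG00000030579, chr7:30413788-30417577, plus strand), which encodes the ITAM adaptor DAP12, had the largest log2 fold change of all members in weekly females and was singled out after its values were seen. Its male libraries were at 1.58, 1.47 and 2.395 CPM with vehicle, 1.06, 1.54 and 1.25 CPM with weekly and 1.39, 1.26 and 0.294 CPM with daily prednisone. In females it stood at 0.762, 0.761 and 1.07 CPM with vehicle, 3.89, 2.58 and 3.08 CPM with weekly and 1.305, 1.45 and 1.45 CPM with daily prednisone. All 3 weekly females lay above the other 15 libraries, and the vehicle females lay below all daily females and all vehicle males. The log2 fold change was 1.87 ± 0.38 SE (adjusted p = 0.247, edgeR). The low-affinity Fc receptor gene *Fcgr3* was at 3.39, 0.652 and 1.43 CPM in vehicle and 4.42, 1.72 and 4.01 CPM in weekly females, which overlapped.

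**Figure D3:**
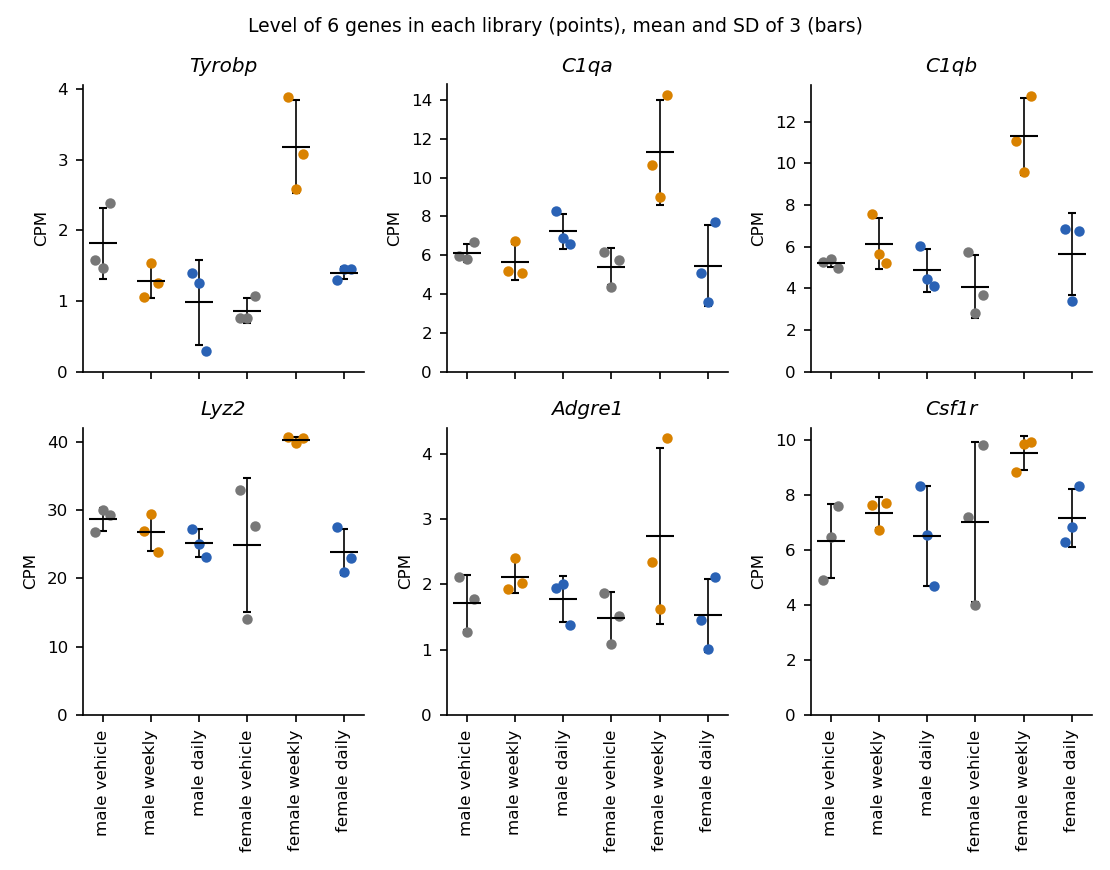
Level in CPM of *Tyrobp*, *C1qa*, *C1qb*, *Lyz2*, *Adgre1* and *Csf1r* in each library (points), with the mean and SD of the 3 libraries of a group (bars), every axis from 0. In *Tyrobp*, *C1qa*, *C1qb* and *Lyz2* the weekly female points lie above all vehicle and daily female points, and in *Adgre1* they do not.

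The 3 genes for the chains of complement C1q, the molecule that starts the classical pathway and is made largely by macrophages, lie side by side on chromosome 4, and all 3 lay above 0 in weekly females with a median log2 fold change of 1.06. *C1qa* (ENSMUSG00000036887, chr4:136895917-136898803, minus strand) stood in males at 5.97, 5.79 and 6.66 CPM with vehicle, 5.19, 6.72 and 5.09 CPM with weekly and 8.27, 6.92 and 6.56 CPM with daily prednisone. Its female libraries were at 6.18, 4.35 and 5.73 CPM with vehicle, 10.7, 8.998 and 14.3 CPM with weekly and 5.07, 3.59 and 7.73 CPM with daily prednisone. Weekly females lay above all vehicle and daily females (log2 fold change against vehicle 1.06 ± 0.25 SE, adjusted p = 0.247 by edgeR and 0.0207 by DESeq2, over alternatives from 0.0207 to 1). *C1qb* (ENSMUSG00000036905, chr4:136880129-136886187, minus strand) stood in males at 5.27, 5.39 and 4.998 CPM with vehicle, 7.57, 5.67 and 5.23 CPM with weekly and 6.05, 4.46 and 4.11 CPM with daily prednisone. The female values were 5.76, 2.83 and 3.67 CPM with vehicle, 11.1, 9.57 and 13.3 CPM with weekly and 6.83, 3.397 and 6.77 CPM with daily prednisone. Its weekly female libraries were the 3 highest of all 18 libraries (log2 fold change 1.46 ± 0.28 SE, adjusted p = 0.247 by edgeR and 0.00309 by DESeq2, over alternatives from 0.00309 to 1). *C1qc* (ENSMUSG00000036896, chr4:136889804-136893065, minus strand) was at 7.03, 2.83 and 6.45 CPM in vehicle, 9.38, 5.93 and 10.3 in weekly and 5.61, 3.397 and 5.196 CPM in daily females, with 1 weekly library inside the vehicle range.

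The stretch of 250 bases before RefSeq's start of transcription is shown for the neighbors *C1qb* and *C1qc*, and for *Pf4*. All were picked from the members whose window holds the letters marked below. With both sexes averaged, *C1qb* and *Pf4* passed between daily and weekly prednisone, and so did *Cd68* and *Fcer1g*, whose windows lack these letters. In each sex alone 0 members passed by edgeR. Leaving out 1 library ended the call of *C1qb* in 9 of 12 cases and that of *Pf4* in 11 of 12. RefSeq windows were given for 24 of the 32 members. Capitals mark AGGAAGT, the core letters bound by PU.1, the product of *Spi1*, or their reverse complement on the other strand. Each stretch reads 5′ to 3′ on the strand of the gene, in build GRCm38.p6, and holds 1 match. chr4:136886201-136886450 (minus strand), chr4:136892915-136893164 (minus strand) and chr5:90772185-90772434 (plus strand) are their positions. For *C1qc* that start lies inside the gene as the count table places it, so part of its stretch is within the gene there.
C1qb: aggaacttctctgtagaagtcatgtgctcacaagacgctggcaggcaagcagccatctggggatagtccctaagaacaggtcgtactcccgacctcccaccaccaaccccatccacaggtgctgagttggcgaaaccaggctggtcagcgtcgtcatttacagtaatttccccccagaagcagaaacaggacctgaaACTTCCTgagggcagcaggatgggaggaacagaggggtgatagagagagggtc
C1qc: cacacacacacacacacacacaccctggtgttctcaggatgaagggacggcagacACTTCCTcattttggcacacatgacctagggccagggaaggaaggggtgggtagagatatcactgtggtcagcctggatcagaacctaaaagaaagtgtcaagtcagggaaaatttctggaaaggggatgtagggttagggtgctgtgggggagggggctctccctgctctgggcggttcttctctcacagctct
Pf4: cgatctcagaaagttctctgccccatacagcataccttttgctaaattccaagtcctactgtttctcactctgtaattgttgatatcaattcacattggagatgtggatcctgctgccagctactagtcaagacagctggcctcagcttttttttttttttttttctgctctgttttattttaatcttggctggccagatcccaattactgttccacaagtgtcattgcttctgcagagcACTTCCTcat

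Those 7 letters, on either strand, stood in the 300-base window (250 bases before and 50 after the start) of 11 of the 24 members (45.8%) and of 2886 of 27025 genes (10.7%). The longer GAGGAAGT, which contains them, stood in 5 of 24 members (20.8%) and in 3.69% of genes. The glucocorticoid receptor palindrome core ACANNNTGT stood in 4 of 24 members, namely *C1qc*, *Ctss*, *Fcgr3* and *Lyz2* (16.7%), and in 7.90% of genes. These letters were picked after several spellings had been looked at, and a match is a description of sequence, not a bound site.

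Integrins and pan-leukocyte membrane proteins gave 5 of 5 log2 fold changes above 0 in weekly females, between 0.76 and 0.83. *Itgam*, the integrin alpha chain CD11b of myeloid cells, stood in males at 1.14, 2.75 and 1.67 CPM with vehicle, 1.41, 2.498 and 1.53 CPM with weekly and 1.88, 1.38 and 1.67 CPM with daily prednisone. Females had 1.95, 0.869 and 1.702 CPM with vehicle, 2.61, 1.91 and 3.62 CPM with weekly and 1.54, 1.64 and 1.63 CPM with daily prednisone. Weekly females lay above all daily females but overlapped vehicle (log2 fold change 0.83 ± 0.36 SE). *Ptprc* stood in males at 0.263, 1.08 and 1.77 CPM with vehicle, 1.32, 1.54 and 1.25 CPM with weekly and 1.81, 1.26 and 2.25 CPM with daily prednisone. In females it stood at 1.44, 0.109 and 1.43 CPM with vehicle, 2.14, 1.24 and 1.85 CPM with weekly and 1.38, 2.08 and 2.296 CPM with daily prednisone. The values of *Ptprc* were lowest in 1 vehicle library of each sex, and the groups overlapped. *Laptm5*, a lysosomal membrane protein gene of leukocytes, was at 2.79, 1.74 and 4.12 CPM in vehicle and 4.89, 4.499 and 6.17 CPM in weekly females, without overlap. The tetraspanin gene *Cd53* was at 0.762, 0.869 and 0.895 CPM in vehicle and 1.27, 1.15 and 2.004 CPM in weekly females, also without overlap. The shared integrin beta chain gene *Itgb2* was at 1.95, 0.652 and 0.716 CPM in vehicle and 2.28, 1.82 and 1.62 CPM in weekly females, which overlapped.

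Of the lysosomal and secreted effectors, 7 of 7 lay above 0 in weekly females. *Lyz2* (ENSMUSG00000069516, chr10:117277334-117282274, minus strand) stood in males at 26.8, 30.02 and 29.3 CPM with vehicle, 27.0, 29.5 and 23.9 CPM with weekly and 27.2, 25.1 and 23.1 CPM with daily prednisone. Its female libraries were at 32.9, 14.02 and 27.8 CPM with vehicle, 40.7, 39.9 and 40.5 CPM with weekly and 27.6, 21.01 and 23.02 CPM with daily prednisone. The 3 weekly females were the highest of all 18 libraries and differed by under 1 CPM, whereas female vehicle replicate 2 was the lowest of all (log2 fold change 0.69 ± 0.21 SE, adjusted p = 0.308, edgeR). *Ctss* was at 4.15, 1.74 and 2.78 CPM in vehicle and 5.16, 4.499 and 6.47 CPM in weekly females. The gene for the pore-forming perforin-2, *Mpeg1*, was at 2.71, 1.41 and 2.42 CPM in vehicle and 3.55, 3.06 and 3.62 CPM in weekly females, and in both genes the groups did not overlap. The coagulation factor subunit gene *F13a1* was at 6.35, 3.803 and 5.82 CPM in vehicle and 8.71, 5.46 and 10.6 CPM in weekly females, which overlapped. *Ly86*, which encodes the partner MD-1 of a Toll-like receptor relative, was below 2 CPM in every library. *Lgmn* had the smallest log2 fold change of all members, 0.07 ± 0.13 SE, and also the smallest SE.

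*Spi1* encodes PU.1, the transcription factor that sets myeloid identity, and was also singled out after its values were seen. The male values were 0.878, 0.981 and 0.416 CPM with vehicle, 0.4398, 0.4804 and 0.488 CPM with weekly and 0.765, 0.4401 and 0.783 CPM with daily prednisone. The female values were 0.847, 0.326 and 0.0896 CPM with vehicle, 1.41, 1.24 and 1.47 CPM with weekly and 0.921, 0.944 and 1.15 CPM with daily prednisone. Weekly females were the 3 highest of the 18 libraries and all daily females lay above all vehicle females, while female vehicle replicate 3 had a count of 1 (log2 fold change 1.65 ± 0.49 SE for weekly and 1.21 ± 0.49 SE for daily prednisone).

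In males the members lay on both sides of 0 with weekly prednisone. Their median log2 fold change against vehicle was -0.02 (0.01 over all genes), with 12 of 28 above 0 and a range of -0.69 to 0.96. No member and 0% of all genes passed edgeR's test, 0 members had an unadjusted p under 0.05, and limma-voom and DESeq2 called 0. The weekly libraries lay wholly above vehicle for 2 members, *Cd14* and *F13a1* (7.76% of all genes), and wholly below for *Cd163* (8.97%). Tested directly, the difference of the weekly response between the sexes (female minus male) was above 0 for 27 of 28 members, with a median of 0.69 log2. Of the members 8 had an unadjusted p under 0.05 and a difference above 0, where 1.70% of all genes did, but 0 members and 0% of all genes passed the adjusted test. The estimates were 2.37 ± 0.54 SE for *Tyrobp*, 2.34 ± 0.71 SE for *Spi1*, 1.22 ± 0.40 SE for *C1qb* and 1.17 ± 0.35 SE for *C1qa*. With limma-voom and DESeq2 0 members were called as well. Leaving out female vehicle replicate 2 the median difference was 0.39, leaving out female weekly replicate 3 it was 0.39, and with neither it was 0.26, with 21 of 28 above 0.

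With both sexes averaged, weekly prednisone gave positive log2 fold changes for 26 of 28 members, with a median of 0.40. No member and 0% of all genes passed, 7 members were higher at an unadjusted p under 0.05 (6.40% of all genes), limma-voom called 0 and DESeq2 called *C1qb*, among 178 of 15761 genes. The median was 0.26 without female vehicle replicate 2 and 0.19 with neither that library nor female weekly replicate 3. With the adipocyte score held constant it was 0.12, with 18 of 28 members above 0.

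**Figure D4:**
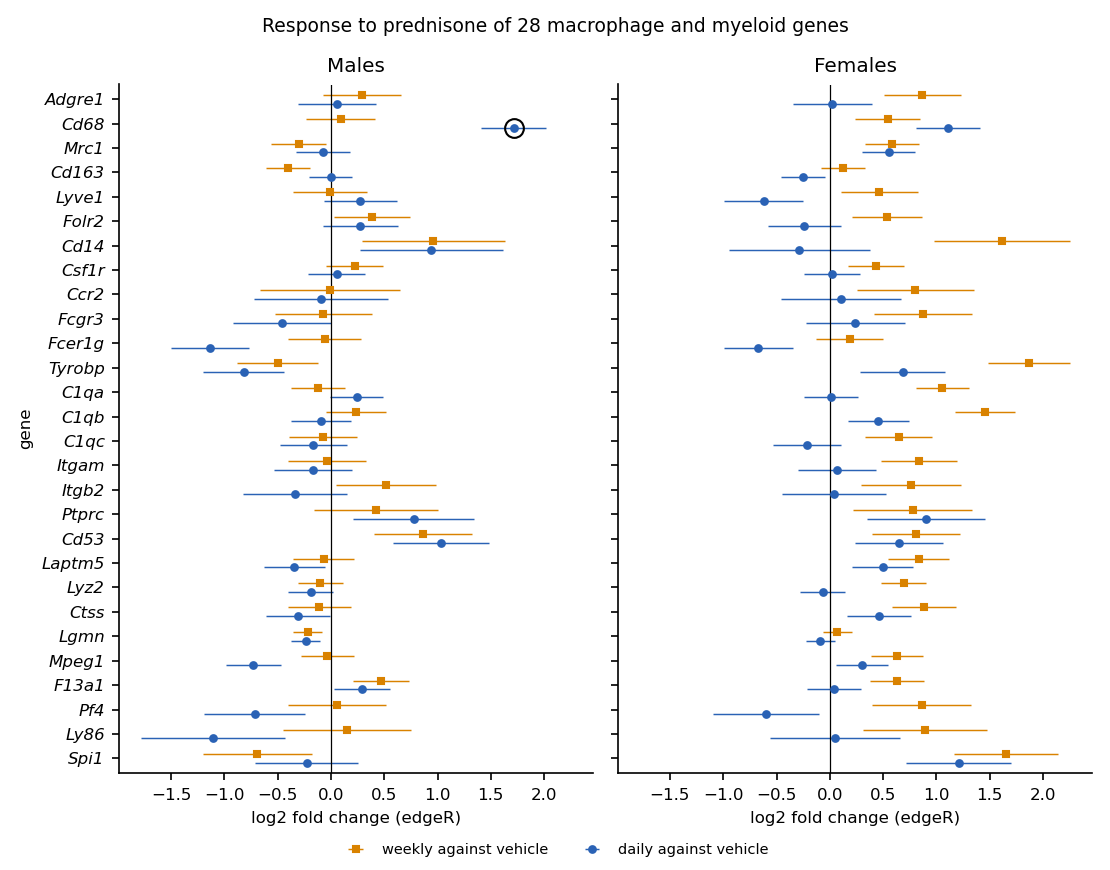
Log2 fold change (horizontal axis, edgeR) of the 28 tested genes (vertical axis) against vehicle in males (left) and females (right), orange squares for weekly and blue circles for daily prednisone, bars for 1 SE, a black ring for a call after adjustment. The weekly points of females all lie to the right of 0, those of males lie on both sides, and the 1 ringed point is *Cd68* in daily males.

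The next comparison asked what daily prednisone did. The median log2 fold change over the members was -0.13 for males and 0.04 for females. The female median was -0.14 without female vehicle replicate 2, 0.26 without female vehicle replicate 1 and 0.25 without female daily replicate 2, so its sign turned with 1 library. In males 1 of 28 members passed (3.57%), where 6.46% of all genes did and 2.07% were higher. In females 0 of 28 passed, where 0.382% of all genes did, while 3 were higher at an unadjusted p under 0.05, limma-voom called 0 and DESeq2 called *Cd68*, among 503 of 13660 genes. Averaged over both sexes, 2 of 28 passed, 1 higher (3.57%) and 1 lower (3.57%), where 7.48% of all genes were higher and 7.47% lower. With both sexes averaged, 7 of 10 adipocyte markers were called higher in the same libraries, and the 10 had a median log2 fold change of 2.49. Of 5 tested red blood cell genes 4 were called lower there, with a median of -0.63 over the 5. In males alone 0 of these were called, and in females alone 1 adipocyte marker was called higher and 1 red blood cell gene lower. With the adipocyte score held constant the members' median log2 fold change was -0.36 in males, -0.22 in females and -0.29 for both sexes, where 0.01 was the median without the score. Of the 28 members 4 then lay above 0 for both sexes, against 15 without the score. The part of the red blood cell genes was not tested.

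The member that rose was *Cd68* (ENSMUSG00000018774, chr11:69664213-69666153, minus strand), which encodes macrosialin, a lysosomal glycoprotein of phagocytes. In males it stood at 2.19, 2.06 and 1.35 CPM with vehicle, 2.11, 1.63 and 2.23 CPM with weekly and 5.84, 7.67 and 4.99 CPM with daily prednisone. Females had 2.54, 1.74 and 2.69 CPM with vehicle, 2.81, 3.83 and 3.62 CPM with weekly and 3.46, 7.42 and 4.23 CPM with daily prednisone. In both sexes every daily library lay above every vehicle library, and in males also above every weekly library. The log2 fold change was 1.72 ± 0.30 SE in males (adjusted p = 0.00785), 1.11 ± 0.30 SE in females (adjusted p = 0.0832) and 1.41 ± 0.21 SE for both sexes (adjusted p = 0.000961), all by edgeR. The response did not pass as different between the sexes (-0.61 ± 0.42 SE log2, female minus male, adjusted p = 0.889). With the adipocyte score held constant, the log2 fold change for both sexes was 1.58, with an adjusted p of 0.0637.

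*Cd68* begins 783 bases beyond the end of *Eif4a1*, a translation factor gene on the same strand that was far more abundant. *Eif4a1* stood at 66.3, 72.8 and 83.9 CPM in vehicle and 127, 147 and 97.03 CPM in daily males, whose groups did not overlap. In females it stood at 83.8, 94.1 and 84.1 CPM with vehicle and 83.3, 162 and 141 CPM with daily prednisone, with overlap. Its log2 fold change for both sexes was 0.65 ± 0.15 SE (adjusted p = 0.01002), so it rose too. The neighbor's part in the counts assigned to *Cd68* was not tested. Among other macrophage markers, *Adgre1*, *Csf1r*, *Mrc1* and *Itgam* had log2 fold changes of 0.04, 0.04, 0.24 and -0.05 with daily prednisone for both sexes, and none of these passed. At an unadjusted p under 0.05, 3 of 28 members were higher there, where 15.5% of all genes were. Beside *Cd68* these were the leukocyte genes *Cd53* (adjusted p = 0.0727, edgeR) and *Ptprc* (adjusted p = 0.169, edgeR). *Cd53* passed when male daily replicate 2 or male vehicle replicate 3 was left out.

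The member that fell was *Fcer1g* (ENSMUSG00000058715, chr1:171229572-171234365, minus strand), which encodes the common gamma chain through which Fc receptors signal. Its male libraries were at 1.41, 2.85 and 1.25 CPM with vehicle, 1.85, 1.92 and 1.53 CPM with weekly and 1.04, 0.817 and 0.588 CPM with daily prednisone. In females it stood at 2.62, 2.39 and 3.49 CPM with vehicle, 2.41, 3.73 and 3.62 CPM with weekly and 1.92, 1.26 and 2.17 CPM with daily prednisone. In each sex every daily library lay below every vehicle and every weekly library. The log2 fold change was -0.90 ± 0.24 SE for both sexes (adjusted p = 0.0205), with -1.13 ± 0.37 SE in males (adjusted p = 0.0731) and -0.67 ± 0.32 SE in females (adjusted p = 0.297), by edgeR. The call was lost without female daily replicate 2, female vehicle replicate 3, male daily replicate 3 or male vehicle replicate 2, with adjusted p from 0.0512 to 0.0738, and with the adipocyte score held constant (log2 fold change -1.05, adjusted p = 0.155).

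**Figure D5:**
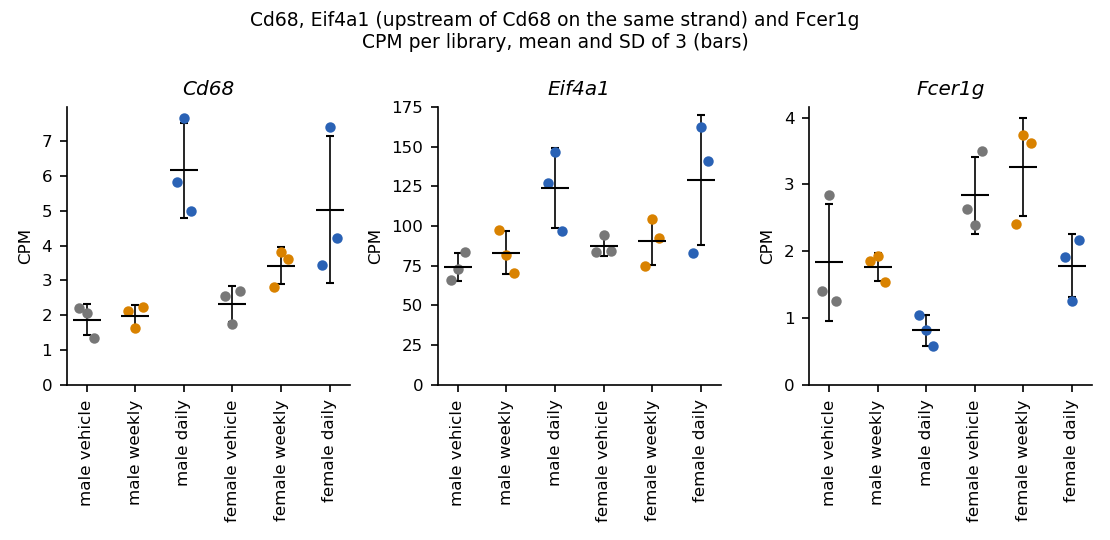
Level in CPM (vertical axes, from 0) of *Cd68*, of *Eif4a1*, which ends just before it on the same strand, and of *Fcer1g*, in each library (points) with the mean and SD of 3 (bars). The daily points of *Cd68* lie above the vehicle points of the same sex and those of *Fcer1g* below, and the daily points of *Eif4a1* lie above the vehicle points in males.

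Of the remaining members, the daily libraries of males lay wholly above vehicle for *F13a1* beside *Cd68*, which makes 2 of 28 (16.4% of all genes), and wholly below for *Fcer1g*, *Tyrobp*, *Mpeg1* and *Pf4*, which makes 4 (17.1%). In females they lay wholly above for *Cd68*, *Mrc1*, *Tyrobp*, *Cd53* and *Spi1*, which makes 5 (12.9%), and below for *Fcer1g* alone (10.2%). *Mpeg1* was at 2.63, 2.65 and 2.29 CPM in vehicle and 1.39, 1.698 and 1.47 CPM in daily males. No member and 0% of all genes passed the test of a sex difference of the daily response. At an unadjusted p under 0.05 the female minus male difference was above 0 for 2 members, *Mpeg1* and *Tyrobp*, each with a log2 fold change below 0 in males and above 0 in females, and limma-voom and DESeq2 called 0.

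The schedules were then set against each other. In females 26 of 28 members were lower with daily prednisone, with a median log2 fold change of -0.71 (-0.04 over all genes). The median was -0.45 without female weekly replicate 3, when 6 members were lower at an unadjusted p under 0.05, and -0.48 without female daily replicate 2, when 7 were. Without pairing the libraries, 0 members and 0% of all genes passed edgeR's test, and limma-voom called 0. At an unadjusted p under 0.05, 13 of 28 were lower (8.63% of all genes), and in 12 of 28 every daily library lay below every weekly library (7.34%). The same-numbered daily and weekly libraries of females deviated together, although the labels do not say what a number marks. The column numbers of these libraries were 2, 3 and 4 for daily and 1, 4 and 5 for weekly females. A block on the replicate number for those groups was added after seeing the data. With it 2 members, *C1qa* and *C1qb*, fell in the daily libraries relative to the weekly ones (log2 -1.08 and -1.03, adjusted p = 0.0204 and 0.0315, edgeR), among 522 of 13596 genes. DESeq2 called 536 of 13596 genes and 4 members, namely *C1qa*, *C1qb*, *Cd14* and *Lyz2*. Since these comparisons share the weekly libraries with the weekly response, they are not independent of it.

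In males 0 of 28 members and 0% of all genes passed between daily and weekly prednisone, while 1 was higher and 2 lower at an unadjusted p under 0.05, and limma-voom and DESeq2 called 0. With both sexes averaged 4 of 28 passed (14.3%), where 8.17% of all genes did. *Cd68* was higher with daily prednisone (1.10 ± 0.21 SE, adjusted p = 0.00789), where 4.30% of all genes were. *Fcer1g* (-0.97 ± 0.24 SE, adjusted p = 0.02401), *C1qb* (-0.66 ± 0.20 SE, adjusted p = 0.0456) and *Pf4* (-1.12 ± 0.33 SE, adjusted p = 0.0475) were lower (edgeR), where 3.88% of all genes were. At an unadjusted p under 0.05, 12 members were lower, where 11.9% of all genes were. Of the 12 single libraries that could be left out, 9 ended the call of *C1qb*, 11 that of *Pf4* and 4 that of *Fcer1g*, and none ended that of *Cd68*.

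*Pf4* (ENSMUSG00000029373, chr5:90772435-90773381, plus strand) encodes platelet factor 4, a chemokine of platelets that resident macrophages also make. The male values were 2.37, 2.55 and 1.98 CPM with vehicle, 2.46, 2.98 and 1.81 CPM with weekly and 1.46, 1.45 and 1.27 CPM with daily prednisone. Its female libraries were at 2.12, 0.543 and 2.06 CPM with vehicle, 2.55, 1.05 and 5.09 CPM with weekly and 1.07, 0.818 and 1.27 CPM with daily prednisone. The daily males lay below all vehicle and weekly males, whereas in females 1 weekly and 1 vehicle library lay as low as the daily ones. Of 5 tested red blood cell genes 4 were also lower with daily than with weekly prednisone in both sexes, with a median log2 fold change of -0.81. The part of blood content in the values of *Pf4* was not tested.

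Vehicle mice of the sexes were compared last. No member passed, where 0.765% of all genes did, and the median log2 difference (female minus male) was -0.18, and 0.02 without female vehicle replicate 2, with 15 of 28 above 0. At an unadjusted p under 0.05 only *Tyrobp* was lower in females (-1.05 ± 0.40 SE), and limma-voom and DESeq2 called 0 members. For *Tyrobp* all 3 female vehicle libraries lay below all male ones. These vehicle females are the ones against which its weekly response was measured.

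Related genes outside the 32 had smaller median log2 fold changes in weekly females. Of 18 further genes of resident and scavenging macrophages 11 were tested, with a median log2 fold change of 0.18, and 12 of 17 macrophage growth factors and chemokines had a median of 0.21. Further, 11 tested of 18 genes of Fc receptor and ITAM signaling had a median of 0.30, the 14 of 16 complement genes 0.12, the 16 of 18 further lysosomal and phagocyte enzymes 0.07 and the 15 of 18 inflammatory mediators -0.10. The 8 tested of 12 genes of MHC class II and dendritic cells had a median of 0.58, with 7 above 0. None of these genes passed in weekly females, as did none of the 13596 genes.

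With daily prednisone and both sexes averaged, 1 of the 11 tested resident macrophage genes fell. This was *Cbr2*, a carbonyl reductase gene, with a log2 fold change of -1.18 ± 0.20 SE (adjusted p = 0.00174, edgeR). *Cbr2* was also lower in vehicle females than in vehicle males (-2.47 ± 0.28 SE log2, adjusted p = 0.000174). Of the 14 complement genes 2 rose, the receptor gene *C5ar1* (1.15 ± 0.36 SE, adjusted p = 0.0415) and the adipocyte product *Cfd* (2.67 ± 0.57 SE, adjusted p = 0.00755), and 0 of the 12 growth factor and chemokine genes, 11 Fc and ITAM genes, 16 lysosomal genes and 15 inflammatory mediators passed. Between daily and weekly prednisone in both sexes *Cbr2* (-0.69 ± 0.20 SE), the chemokine gene *Ccl9* (-1.02 ± 0.24 SE), the oxidase subunit gene *Cyba* (-0.59 ± 0.13 SE), the protease gene *Ctsz* (-0.36 ± 0.08 SE) and *Zbtb46* (-0.63 ± 0.16 SE), a transcription factor gene of dendritic cells, were lower with daily prednisone, with adjusted p from 0.0158 to 0.0425 by edgeR. Of 11 known glucocorticoid receptor targets, *Fkbp5* (1.03 ± 0.30 SE, adjusted p = 0.04596) and *Zbtb16* (0.76 ± 0.15 SE, adjusted p = 0.00923) were higher there.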

How the data were processed

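RNA-seq counts per gene for 18 libraries were used as deposited by the authors, who aligned reads to mm10. The processing notes list TopHat2 2.1.0, Bowtie2 2.2.6 and HTSeq, and the builds mm10 and mm9, without roles, and the strand setting of the counting is not given in the sources used here. No normalization had been applied to the deposited counts. Groups came from the sample labels. Gene positions are those of the deposited table, and 42462 of 43430 identifiers had a symbol. Because the deposited lengths exceeded the gene span for 1982 identifiers, levels per kilobase used merged exons of GENCODE M21.

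Genes with low counts were removed with filterByExpr (minimum count 10), which left 13596. Group means over all 18 libraries were fitted with edgeR 4.0.16 (TMM, robust quasi-likelihood) in R 4.3.3, with Benjamini-Hochberg adjustment over all genes and a threshold of 0.05. A log2 fold change, adjusted p or count of calls given for or in both sexes is of the mean of the sexes. A gene called there need not pass in each sex. The SE is the log2 fold change divided by the root of F. CPM are counts relative to the TMM-scaled library size, and group comparisons per library are of these values. Scripts were tested on simulated data.

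The members and gene lists were chosen with earlier results of these data known. All 32 members are accounted for, and every library's value is given for 12 of them (*Adgre1*, *Cd68*, *Csf1r*, *Mrc1*, *Cd163*, *Lyz2*, *C1qa*, *Itgam*, *Ptprc*, *Ccr2*, *Cx3cr1*, *Lyve1*) and for members that passed a test. Genes outside the members are named only where they passed, where they mark a cell type or where they adjoin or resemble a member. Values in every library were also given for *Tyrobp* and *Spi1*, chosen after their values were seen. Promoter sequences are from RefSeq (GRCm38.p6), and no protein sequences were used here. Some results that need other genes are not reported here.

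Alternatives were DESeq2 1.42.0, limma-voom (limma 3.58.1), DESeq2 size factors, other filters (none, or a minimum count of 30), a filter on expression and fold with no test, the compared groups alone, a replicate block, an adipocyte marker score held constant and leaving out each library. Leaving out female vehicle replicate 2 and female weekly replicate 3 together, and a replicate block for daily and weekly females alone, were added after seeing the data. Gene totals given with DESeq2 calls are of genes that it adjusted over or that edgeR tested. Replicate numbers were checked for pairing by correlating same-numbered deviations from the group means. Every pair correlated above 0.1 only between daily and weekly females (0.501, 0.483 and 0.439), although the labels do not say what a number marks. No pair of replicates agreed within sampling noise. In 12 libraries the column number differs from the replicate number of the title, and the title was followed.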

Additional observations from a re-analysis of the deposited data

Results flagged for a closer look

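The level of *Tyrobp* with daily prednisone lay on opposite sides of vehicle in females and males. In females all daily libraries lay above all vehicle libraries, and in males all lay below. It was flagged as the 1 of 28 members for which this held. Over all genes 12.9% lay wholly above in females and 17.1% wholly below in males, and the share with both was not computed. The vehicle libraries already differed, at 0.761 to 1.07 CPM in females and 1.47 to 2.395 CPM in males. The difference of the log2 fold changes, female minus male, was 1.51 ± 0.55 SE, with an adjusted p of 0.889 by edgeR with Benjamini-Hochberg adjustment, so it did not pass over all genes. Over the alternatives the adjusted p lay between 0.689 and 1 and the difference between 1.10 and 1.80.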

How the results depend on the processing

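With DESeq2, 1 member was called with daily prednisone in females (*Cd68*), 3 with weekly prednisone in females, 1 with weekly prednisone in both sexes (*C1qb*) and 4 between daily and weekly prednisone in females. The filter on expression and fold, which has no test, picked 1 member in daily females (*Mrc1*), 1 in weekly males (*Cd14*), 1 in daily males (*Cd14*, not *Cd68*) and 7 in weekly females. With no filter on low counts *Cd68* was the 1 member called between daily and weekly males. With the adipocyte score held constant, 0 members were called with daily prednisone in both sexes and 1 between daily and weekly females (*C1qa*). The same setting turned the log2 fold change of *Adgre1* (-0.0890) and *C1qa* (-0.0061) with weekly prednisone in both sexes and of *Mrc1* in daily (-0.0538) and weekly (-0.0137) females below 0. The causes were not tested.

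The replicate block over all libraries left 3 members called between daily and weekly prednisone in both sexes, with *Pf4* lost (adjusted p = 0.0581 by edgeR), and changed no other count. The replicate block in the daily and weekly females gave 2 there in females and 4 in both sexes.

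Leaving out single libraries gave 0 to 1 called members for daily females, 0 to 3 for weekly females, 1 to 3 for daily prednisone in both sexes, 0 to 2 between daily and weekly females and 1 to 4 between them in both sexes. *Cd68* in daily males was called in 14 of 14 alternatives with a test, and *Fcer1g* with daily prednisone in both sexes in 15 of 20. Of 72 member values with an unadjusted p under 0.05, 4 changed sign under any alternative. Of the 264 member values without such a p, 118 did. At this depth 4 members were too scarce to test.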
